A study of Mus musculus with 9 samples.

Results

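The interleukin 1 and interleukin 36 family cytokines were followed as 9 genes, selected by their symbols among the 52550 genes of a count table of mouse ear epidermis. The members were the agonists Il1a, Il1b, Il1f6, Il1f8 and Il1f9, the receptor antagonists Il1rn and Il1f5, and the cytokines Il18 and Il33. Il1f5, Il1f6, Il1f8 and Il1f9 are the table's symbols for the genes of the IL-36 receptor antagonist and of IL-36 alpha, beta and gamma. Bulk RNA of epidermal ear sheets was sequenced in 9 libraries, 3 in each of 3 groups of wild type male C57BL/6 mice (C57BL/6J in the methods) aged 8 weeks. The control group had Vaseline on the ears and water by gavage (VAS + H2O). The model group had cream with imiquimod, an agonist of a Toll-like receptor that senses RNA, and water (IMQ + H2O), and the third group had imiquimod and 200 μl of the XYF decoction at 23.3 mg/g (IMQ + XYF). Creams were applied for 5 days and gavage was given for 10 days. The methods mention 2 mice as the source of the sheets, while the paper's figure legends give n = 3 per group. The number of mice that entered each library is not given, so p-values measure the spread between these libraries, which may be partly technical.

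Cytokines of this family act as alarms of barrier tissues. IL-1 alpha and IL-1 beta bind one receptor, which IL-1 receptor antagonist occupies without signalling, and the 3 IL-36 agonists and the IL-36 receptor antagonist share another receptor in the same way. Both receptors recruit a common accessory chain and signal through MyD88 to NF-kappaB, and keratinocytes answer with neutrophil chemokines and antimicrobial proteins. Loss of the IL-36 receptor antagonist in humans causes a pustular form of psoriasis.

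Total counts per library ran from 30298275 to 64771160, and 3 counts, taken as the floor of detection for counting error only, corresponded to 0.0471 to 0.104 CPM, the unit of counts scaled to a common library size that is used throughout. The keratinocyte markers Krt5, Krt14, Krt1, Krt10 and 6 others of that list summed to 40010 to 63720 CPM, and none of the list was at 0. In IMQ + H2O against VAS + H2O, 3 of these 10 were called higher and 1 lower, where 656 and 727 of all 18009 genes were. In IMQ + XYF against VAS + H2O, 2 were called higher and 1 lower, where 823 and 548 of all 17954 genes were. VAS + H2O replicate 2 stood apart in markers of tissue below the epidermis, with 643.6 CPM of fibroblast genes against 45.3 to 204.5 in the other libraries and 115.1 CPM of muscle genes against 0.726 to 31.3. Cartilage markers also moved with the groups, at 169.2 to 398.4 CPM in sum in VAS + H2O, 34.1 to 77.1 in IMQ + H2O and 121.2 to 185.7 in IMQ + XYF. All 6 that were tested were called lower in the first imiquimod group against the controls. With XYF against water all 6 were fitted higher, with a median log2 fold change of 2.05, and 1 was called. Of all 17793 genes tested with XYF against water, 5 were called (0.0281%). Markers of dendritic epidermal T cells summed to 67.9 to 78.1 CPM in VAS + H2O and 36.5 to 54.2 CPM in the imiquimod libraries, with 1 of 7 tested called lower in IMQ + H2O. Of all 18009 genes tested in that comparison, 727 were called lower. The part of these tissues and cells in the results on the cytokines was not tested. Neutrophil markers were highest in IMQ + H2O replicate 3 and IMQ + XYF replicate 1. In bulk RNA, a larger share of cells of one type cannot be told apart from more RNA per cell.

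Under imiquimod with water, 3 of the 9 cytokine genes rose against VAS + H2O: Il1a, Il1f6 and Il1f9. A gene was called when the quasi-likelihood test of edgeR gave an adjusted p of at most 0.05 and the fitted log2 fold change was at least 1 in size. Of all 18009 genes tested, 7.68% were called in either direction and 3.64% were called higher. In 7 of the 9 members every IMQ + H2O library was above every VAS + H2O library, which held for 23.1% of the 18492 genes compared in this way. The median log2 fold change of the members was 0.96 and that of all genes tested was -0.03.

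Il1a encodes IL-1 alpha, which keratinocytes keep in the cell and release on damage. It was measured at 6.03, 5.10 and 6.14 CPM in VAS + H2O replicates 1, 2 and 3, at 19.3, 24.0 and 34.2 CPM in IMQ + H2O, and at 25.2, 31.3 and 30.4 CPM in IMQ + XYF. All 6 imiquimod libraries lay above all 3 controls, and the 2 imiquimod groups overlapped. The fitted rise in IMQ + H2O was 4.45-fold (log2 fold change 2.15 ± 0.23 SE, adjusted p = 0.00575), with a 95% confidence interval of 3.06 to 6.47-fold. The gene (ENSMUSG00000027399) lies on the minus strand at chr2:129299610-129309972 of GRCm38, with the transcript Gm14023 on the other strand sharing exonic sequence, at 1.08 to 2.08 CPM in the 9 libraries.

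Il1f6, the gene of IL-36 alpha, was at 9.88, 7.10 and 7.49 CPM in VAS + H2O, 40.0, 25.7 and 21.0 CPM in IMQ + H2O, and 23.2, 33.5 and 25.2 CPM in IMQ + XYF. The lowest imiquimod library was above the highest control. Its rise in IMQ + H2O was 3.50-fold (log2 fold change 1.81 ± 0.26 SE, adjusted p = 0.00931). Il1f9, the gene of IL-36 gamma, was at 58.2, 49.2 and 58.3 CPM in VAS + H2O, 142.1, 112.2 and 113.2 CPM in IMQ + H2O, and 109.6, 129.0 and 107.9 CPM in IMQ + XYF. Again no imiquimod library overlapped the controls. The rise was 2.20-fold (log2 fold change 1.14 ± 0.12 SE, adjusted p = 0.00575), the narrowest interval of the 3 called genes at 1.80 to 2.69-fold.

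Il1f8, the gene of IL-36 beta, was at 29.8, 22.6 and 18.5 CPM in VAS + H2O, 45.7, 43.4 and 23.9 CPM in IMQ + H2O, and 34.6, 38.9 and 35.0 CPM in IMQ + XYF. IMQ + H2O replicate 3 lay within the control range and the 5 other imiquimod libraries lay above it. The difference in IMQ + H2O (log2 fold change 0.66 ± 0.28 SE) was not called (adjusted p = 0.134).

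Promoter windows of 300 bases, from 250 before the transcription start, were read from RefSeq (GRCm38.p6) for 8 of the 9 members. Il1a and Il1f9 are shown because both were called and each holds a motif match, and Il1b because its window held none. Capitals mark matches to the motifs searched on both strands, which were GGGANNTTC for NF-kappaB, TGANTCA for AP-1 and TTGCNNAA for C/EBP. The windows are chr2:129309923-129310222 for Il1a and chr2:129371090-129371389 for Il1b, both on the minus strand, and chr2:24186226-24186525 for Il1f9, on the plus strand.
Il1a: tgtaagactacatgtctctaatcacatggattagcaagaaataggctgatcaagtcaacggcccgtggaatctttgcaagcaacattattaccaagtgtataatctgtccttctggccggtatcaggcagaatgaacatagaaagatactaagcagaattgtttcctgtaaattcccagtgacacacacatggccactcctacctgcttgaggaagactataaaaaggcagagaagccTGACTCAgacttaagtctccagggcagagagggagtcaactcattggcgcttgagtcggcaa
Il1f9: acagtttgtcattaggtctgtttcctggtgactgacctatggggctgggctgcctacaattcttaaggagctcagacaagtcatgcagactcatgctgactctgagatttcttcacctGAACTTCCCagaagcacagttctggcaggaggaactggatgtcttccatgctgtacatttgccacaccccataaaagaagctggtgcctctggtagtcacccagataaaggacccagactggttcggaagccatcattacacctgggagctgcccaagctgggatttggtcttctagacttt
Il1b: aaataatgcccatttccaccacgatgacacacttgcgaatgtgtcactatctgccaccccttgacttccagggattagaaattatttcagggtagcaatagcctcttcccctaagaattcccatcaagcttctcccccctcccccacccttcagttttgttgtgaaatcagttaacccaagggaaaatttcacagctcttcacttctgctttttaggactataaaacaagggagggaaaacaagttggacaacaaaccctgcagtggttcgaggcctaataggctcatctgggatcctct
The Il1a match is an AP-1 motif that begins 12 bases before the start, and the Il1f9 match is an NF-kappaB motif on the reverse strand that begins 132 bases before it. AP-1 matches stood in a window of 3 members (Il1a, Il1rn, Il1f8), against 7.81% of all 32851 windows. NF-kappaB matches stood in 1 member, against 3.94% of all windows, and C/EBP matches in 2 (Il33, Il1f5), against 10.8%. Several members have more than 1 window, and a match is a description of the letters only.

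**Figure D1:**
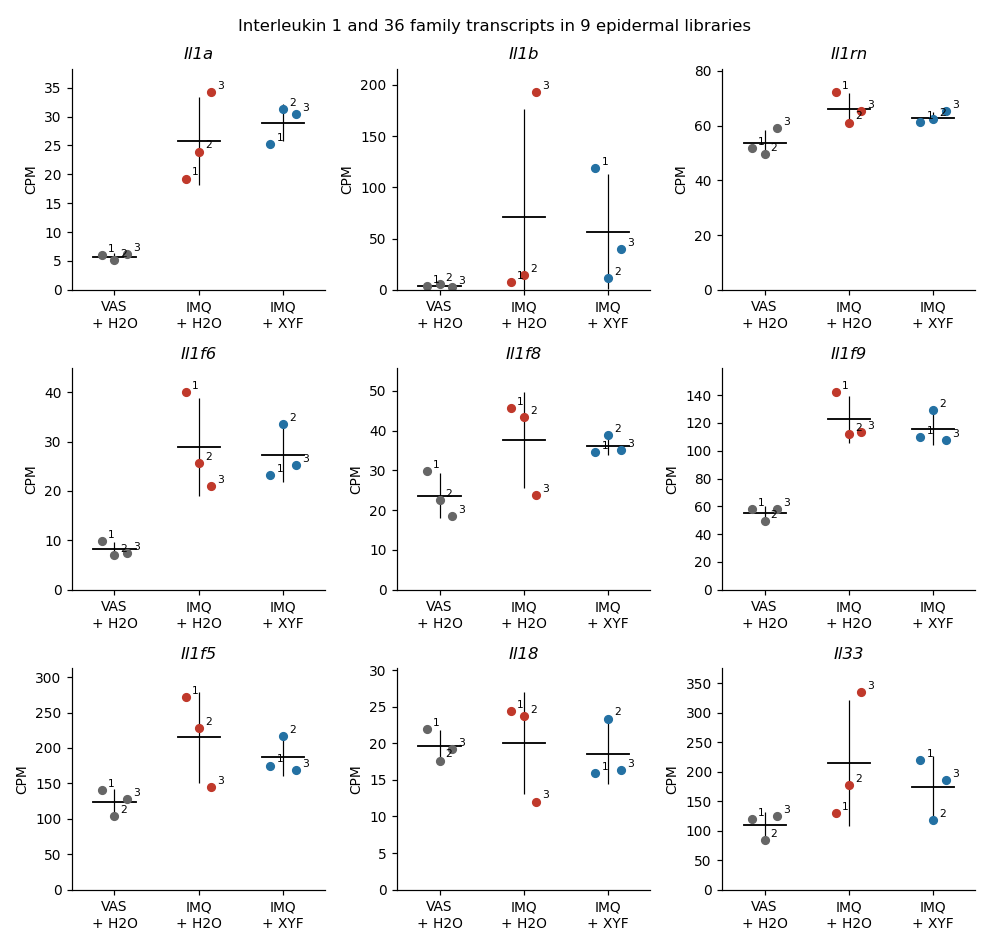
CPM of the 9 cytokine genes in each library, by group, with the replicate number beside each point; horizontal lines are means and vertical lines 1 SD (n = 3), stopped at 0 where they would pass it. Il1a, Il1f6 and Il1f9 have all 6 imiquimod libraries above the controls, while Il1b spreads from 7.40 to 192.7 CPM within IMQ + H2O.

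Il1b, the gene of the secreted IL-1 beta, had the widest spread of the 9 members in every group, with an SD of log2 CPM of 0.49, 2.48 and 1.66 in VAS + H2O, IMQ + H2O and IMQ + XYF. It was at 3.49, 5.86 and 3.04 CPM in VAS + H2O, 7.40, 14.4 and 192.7 CPM in IMQ + H2O, and 119.2, 11.8 and 39.5 CPM in IMQ + XYF. Every imiquimod library was above every control, but IMQ + H2O replicate 3 and IMQ + XYF replicate 1 were far above the others of their groups. The log2 fold change in IMQ + H2O was 4.11 ± 1.26 SE and missed the call (adjusted p = 0.0591). Without IMQ + H2O replicate 3 it was 1.39 (adjusted p = 0.0752), and without replicate 1 it was 4.68 and was called (adjusted p = 0.042). Il1b (ENSMUSG00000027398) lies at chr2:129364570-129371139 on the minus strand and overlaps exons of the antisense gene Il1bos. Il1bos ran the other way, at 1.15 to 1.35 CPM in VAS + H2O and 0.401 to 0.806 CPM in the 6 imiquimod libraries.

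The libraries with high Il1b were those with high Csf3r and Retnlg, which were picked from the 9 neutrophil markers after their values were seen. Csf3r, the receptor of the granulocyte growth factor, was at 38.0 CPM in IMQ + H2O replicate 3, 22.9 CPM in IMQ + XYF replicate 1 and 6.10 CPM in IMQ + XYF replicate 3, and at most 1.33 CPM in the 6 others. Retnlg, another neutrophil gene, was at 15.3, 5.72 and 2.20 CPM in those 3 libraries and at most 0.390 CPM elsewhere. The 9 neutrophil markers summed to 11.0 to 12.7 CPM in VAS + H2O, 49.4 to 144.3 CPM in IMQ + H2O and 62.6 to 90.4 CPM in IMQ + XYF, largely from Cxcr2, while Elane was at 0 in all libraries. That sum did not follow Csf3r in every library. It was 49.4 and 52.25 CPM in IMQ + H2O replicates 1 and 2, and 62.6 and 63.8 CPM in IMQ + XYF replicates 2 and 3. Monocyte or macrophage markers summed to 39.0 to 50.3, 41.9 to 68.7 and 38.3 to 58.3 CPM in the 3 groups, with no marker at 0 throughout. Of the 8 tested in IMQ + H2O against VAS + H2O, 2 were called higher, where 3.64% of all genes were. Their median log2 fold change there was 1.52. In IMQ + XYF against VAS + H2O, none of the 7 tested was called, where 4.58% of all genes were called higher. Their median was 0.49, and at that share the lack of a call among 7 genes is not a result about these markers. Between the imiquimod groups none of the 8 tested was called, where 0.0281% of all genes were. Langerhans cell markers, of the resident dendritic cells, summed to 657.1 to 863.6 CPM over all libraries. The part of these cells in the Il1b values was not tested.

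Il33, the gene of a nuclear alarmin, was at 120.5, 84.1 and 124.7 CPM in VAS + H2O, 130.3, 178.2 and 335.0 CPM in IMQ + H2O, and 219.9, 117.5 and 185.9 CPM in IMQ + XYF. It was highest in the same library of each imiquimod group as Il1b. The log2 fold change in IMQ + H2O was 0.96 ± 0.34 SE, not called (adjusted p = 0.0907), 0.48 without IMQ + H2O replicate 3 and 1.25 without IMQ + H2O replicate 1, where it was called (adjusted p = 0.0493). Il33 (ENSMUSG00000024810) lies at chr19:29925114-29960718 on the plus strand.

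Il18 encodes a cytokine that is made as a precursor and cut by caspase-1. It was at 22.0, 17.6 and 19.2 CPM in VAS + H2O, 24.4, 23.7 and 12.0 CPM in IMQ + H2O, and 16.0, 23.4 and 16.3 CPM in IMQ + XYF. The groups overlapped in all comparisons, and the log2 fold change in IMQ + H2O was 0.02 ± 0.26 SE (adjusted p = 0.971), with an interval of 0.655 to 1.56-fold. Il18 (ENSMUSG00000039217) lies at chr9:50554827-50581840 on the plus strand, where Bco2 and Tex12 overlap its span on the other strand but not its exons, at no more than 1.61 and 0.156 CPM.

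Within the imiquimod groups the members did not move as one. IMQ + H2O replicate 3 had the highest Il1a, Il1b and Il33 of its group and the lowest Il18, Il1f5, Il1f6 and Il1f8. IMQ + XYF replicate 1 had the highest Il1b and Il33 of its group and the lowest Il18, Il1f6 and Il1f8, but also the lowest Il1a, at 25.2 CPM. Over the 9 libraries, with each group's mean log2 CPM removed, Il1b had a Pearson r of -0.946 with Il18, -0.901 with Il1f5, -0.823 with Il1f6 and 0.853 with Il33, and Il18 had 0.951 with Il1f5. These are descriptions of 9 libraries, and the values of a library share its depth and its cell content.

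**Figure D2:**
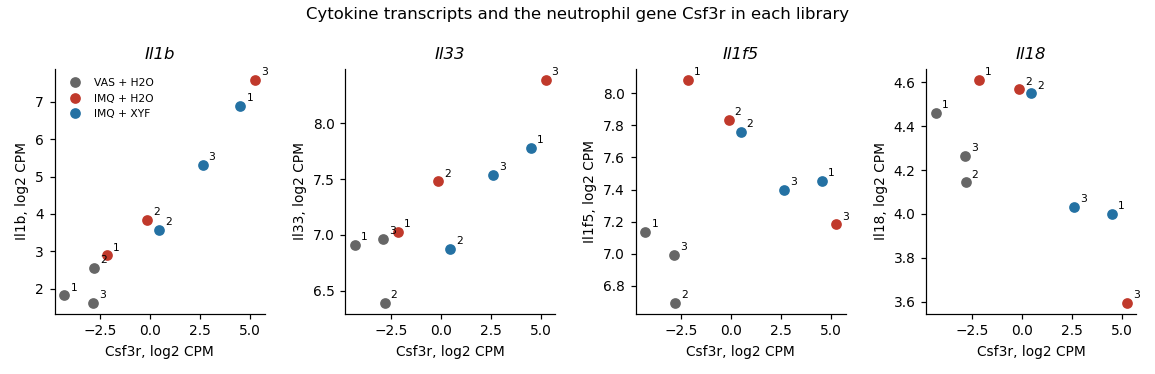
log2 CPM of Il1b, Il33, Il1f5 and Il18 on the vertical axes against log2 CPM of the neutrophil gene Csf3r on the horizontal axis, 1 point per library with its replicate number, coloured by group. IMQ + H2O replicate 3 (38.0 CPM of Csf3r) and IMQ + XYF replicate 1 (22.9 CPM) have the highest Il1b and Il33 and, within their groups, the lowest Il18.

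Both antagonist genes were measured well above their floor in every library, with 1630 or more counts of Il1rn and 3414 or more of Il1f5. Il1rn, the gene of IL-1 receptor antagonist, was at 51.7, 49.5 and 59.1 CPM in VAS + H2O, 72.2, 61.1 and 65.4 CPM in IMQ + H2O, and 61.1, 62.5 and 65.2 CPM in IMQ + XYF. No imiquimod library overlapped the controls, but the difference in IMQ + H2O was 1.23-fold (log2 fold change 0.30 ± 0.10 SE) and was not called (adjusted p = 0.0798). Il1f5, the gene of the IL-36 receptor antagonist, was at 140.6, 103.6 and 127.3 CPM in VAS + H2O, 271.3, 227.9 and 145.3 CPM in IMQ + H2O, and 175.2, 216.5 and 168.6 CPM in IMQ + XYF. IMQ + H2O replicate 3 lay just above the highest control, and the log2 fold change in IMQ + H2O was 0.78 ± 0.23 SE (adjusted p = 0.0510, not called). Without IMQ + H2O replicate 3 the Il1f5 difference was 0.9996 on the log2 scale, just under the fold threshold, with an adjusted p of 0.0176.

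For the summed agonists of each receptor, the count of antagonist per count of agonist was lower in every imiquimod library than in every control. The ratio of Il1rn to the sum of Il1a and Il1b was 5.43, 4.52 and 6.44 in VAS + H2O, 2.71, 1.60 and 0.288 in IMQ + H2O, and 0.423, 1.45 and 0.932 in IMQ + XYF. Against Il1a alone, which did not spread as Il1b did, the ratio was 8.58 to 9.70 in VAS + H2O, 1.91 to 3.74 in IMQ + H2O and 1.997 to 2.42 in IMQ + XYF. Against Il1b alone the groups overlapped, with 14.8, 8.45 and 19.4 in VAS + H2O, 9.76, 4.26 and 0.340 in IMQ + H2O, and 0.513, 5.27 and 1.65 in IMQ + XYF. The ratio of Il1f5 to the sum of Il1f6, Il1f8 and Il1f9 was 1.44, 1.32 and 1.51 in VAS + H2O, 1.19, 1.26 and 0.919 in IMQ + H2O, and 1.05, 1.08 and 1.003 in IMQ + XYF. For Il1f6 alone it was 14.2 to 17.0, 6.79 to 8.86 and 6.46 to 7.55 in the 3 groups, while for Il1f8 alone the groups overlapped at 4.59 to 6.88, 5.25 to 6.09 and 4.81 to 5.57. These ratios are sums of RNA counts, not of protein, and are given as descriptions without a test. Counts were not scaled to exonic length, which is 5535 bases for Il1rn and 4493 for Il1f5, against 883 to 1974 for the agonists. The ratios can therefore be compared between groups, but do not show whether antagonist transcripts outnumber agonist transcripts.

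**Figure D3:**
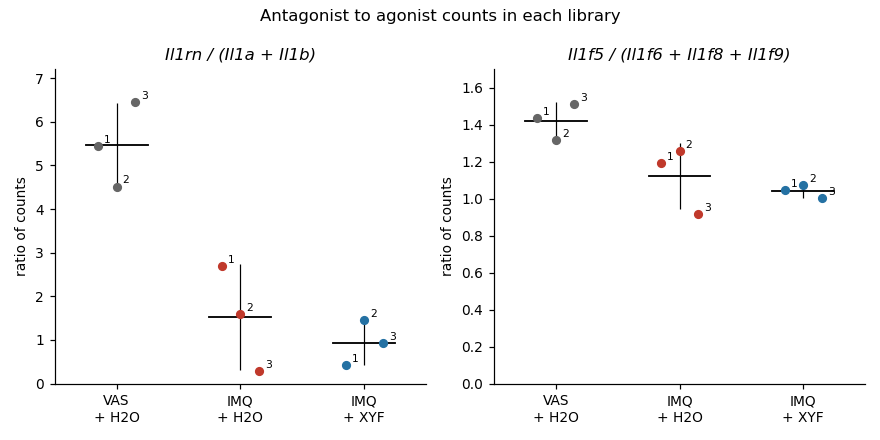
Ratio of antagonist to agonist counts in each library, by group, for the IL-1 pair of genes (left) and the IL-36 genes (right); points carry replicate numbers, horizontal lines are means and vertical lines 1 SD (n = 3). All 6 imiquimod libraries lie below the lowest control, which is 4.52 on the left and 1.32 on the right. Counts were not scaled to exonic length.

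The levels of the members were compared with each other per kilobase of exonic sequence, taken from GENCODE M21 as the union of all annotated exons of a gene. This union can be longer than a single transcript, and was 5535 bases for Il1rn, so the order depends on that choice of length. In VAS + H2O the means ran from Il33 at 38.0 CPM per kb and Il1f9 at 33.5 through Il1f5 at 27.6, Il1f8 at 19.4, Il18 at 19.0, Il1rn at 9.66 and Il1f6 at 9.24 to Il1a at 2.92 and Il1b at 2.17. Of these neighbours in the order only Il18 and Il1rn, and Il1f6 and Il1a, had no overlap between their libraries. In IMQ + H2O the order began with Il1f9 at 74.3 ± 10.3 (SD, n = 3) and Il33 at 74.3 ± 37.1 CPM per kb and ended with Il1a at 13.1 and Il1rn at 12.0, and all neighbours overlapped. With XYF it began with Il1f9 at 70.1 ± 7.13 and Il33 at 60.5 ± 18.1 CPM per kb and ended with the same 2 genes, at 14.7 and 11.4. Il33, Il1f9 and Il1f5 had the 3 highest means per length in each group. Il1b lay below Il1rn in every VAS + H2O library, but its place in IMQ + H2O rested on replicate 3, at 3.88, 7.53 and 101.0 CPM per kb against 13.0, 11.0 and 11.8 for Il1rn. Il1a overlapped Il1rn there, at 9.77, 12.1 and 17.3 CPM per kb, and lay above it in every IMQ + XYF library.

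XYF given with imiquimod was compared with imiquimod and water to ask whether the decoction changed these genes. None of the 9 members was called by edgeR, by the adjusted p alone, or by DESeq2, and 0 had an unadjusted p under 0.05 in either tool. Without IMQ + H2O replicate 3, 4 of the 9 had an unadjusted p under 0.05, as did 1832 of 18109 genes, and none was called. Over all 17793 genes tested, 5 were called by edgeR, which is 0.0281%, and 966 had an unadjusted p under 0.05, while DESeq2 called 129. No member separated the 2 groups, against 10.7% of all genes that did so in one direction or the other. The log2 fold changes of IMQ + XYF against IMQ + H2O ran from -0.32 (Il1b) to 0.17 (Il1a), with an adjusted p of 0.9999 for each.

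The intervals of these differences show what 3 libraries a group could resolve. For Il1rn the 95% confidence interval was 0.834 to 1.09-fold, and for Il1f9 0.778 to 1.15-fold, so that a change of 1.5-fold in either direction lay outside both. The interval was 0.791 to 1.60-fold for Il1a, 0.624 to 1.45-fold for Il1f6, 0.658 to 1.42-fold for Il1f8, 0.604 to 1.26-fold for Il1f5 and 0.576 to 1.5-fold for Il18. For Il33 it was 0.440 to 1.51-fold. For Il1b it was 0.0987 to 6.49-fold, so even a difference of several fold in either direction was not detectable. Without IMQ + H2O replicate 3 the Il1b log2 fold change turned to 2.39 (adjusted p = 0.492), and without both that library and IMQ + XYF replicate 1 it was 1.24 (adjusted p = 0.681).

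Against VAS + H2O, the IMQ + XYF libraries had 4 called members, all higher: Il1a, Il1b, Il1f6 and Il1f9. Of the 17954 genes tested, 7.64% were called and 4.58% were called higher. This comparison shares its controls with the first one, so its values are given beside those and not as separate evidence. Il1a was 5.03-fold higher (log2 fold change 2.33 ± 0.13 SE, adjusted p = 0.000299), Il1f6 3.34-fold (1.74 ± 0.19 SE, adjusted p = 0.00171) and Il1f9 2.09-fold (1.06 ± 0.10 SE, adjusted p = 0.00125). Il1f9 fell just under the fold threshold, at 0.988 and 0.997, when VAS + H2O replicate 2 or IMQ + XYF replicate 2 was left out. Il1b was 13.9-fold higher (3.79 ± 0.83 SE, adjusted p = 0.0164). The Il1b log2 fold change was 2.66 without IMQ + XYF replicate 1 and 4.29 without IMQ + XYF replicate 2, called in both. Its call was lost without VAS + H2O replicate 1 (3.69, adjusted p = 0.0609) or replicate 3 (3.64, adjusted p = 0.0568), where the size of the difference changed little.

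By the adjusted p alone, 6 members were higher in IMQ + XYF than in VAS + H2O, against 16.7% of all genes. The added genes were Il1f5 at 1.51-fold (adjusted p = 0.0219) and Il1f8 at 1.53-fold (adjusted p = 0.0383). Both missed that threshold in the fit of all 9 libraries (adjusted p = 0.0731 and 0.0981), where 3 members passed it here and 6 passed it in IMQ + H2O. In IMQ + H2O the adjusted p alone gave the same 3 members as the full rule, against 12.7% of all genes. In 7 of the 9 members no IMQ + XYF library overlapped the controls from above, against 24.8% of all genes, the exceptions being Il18 and Il33. For Il1rn the log2 fold change was 0.24 ± 0.08 SE (adjusted p = 0.0802), for Il33 0.67 ± 0.25 SE (adjusted p = 0.0896) and for Il18 -0.08 ± 0.17 SE (adjusted p = 0.757).

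**Figure D4:**
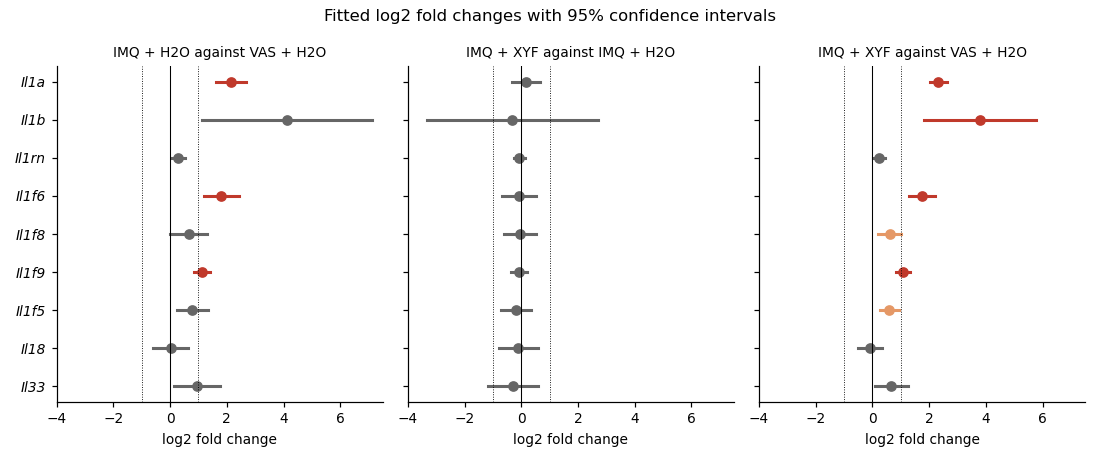
Fitted log2 fold changes of the 9 cytokine genes (points) with 95% confidence intervals (lines) in the 3 comparisons; red marks a call, orange an adjusted p of at most 0.05 below the fold threshold of 1 (dotted lines), grey neither. In IMQ + XYF against IMQ + H2O all points lie between -0.32 and 0.17, and the Il1b interval is the widest in each panel.

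Of the family's mouse ligands outside the selection, Il1f10, the gene of IL-38, was at 9.14, 5.22 and 6.45 CPM in VAS + H2O, 4.63, 5.83 and 4.21 CPM in IMQ + H2O, and 6.05, 8.02 and 5.27 CPM in IMQ + XYF. The groups overlapped, and the log2 fold change in IMQ + H2O was -0.52 ± 0.25 SE (adjusted p = 0.171). Il1f10 shares a 198-kb stretch of chromosome 2, chr2:24153161-24351494, with Il1f8, Il1f9, Il1f6, Il1f5 and Il1rn, all on the plus strand. Il1f8 (ENSMUSG00000026985) is at chr2:24153161-24160519, Il1f9 (ENSMUSG00000044103) at chr2:24186476-24193568 and Il1f6 (ENSMUSG00000026984) at chr2:24215418-24225702. They are followed by Il1f5 (ENSMUSG00000026983) at chr2:24276954-24283426, Il1f10 (ENSMUSG00000046845) at chr2:24291196-24293820 and Il1rn (ENSMUSG00000026981) at chr2:24336853-24351494. Along this stretch, called genes (Il1f9, Il1f6) lay between Il1f8 and Il1f5, which were not called in IMQ + H2O. The 4 other annotated genes of the stretch, of which 3 are pseudogenes or unconfirmed transcripts and 1 a long noncoding RNA, reached at most 0.829 CPM. Il1a and Il1b lie 105 Mb further on the same chromosome. The whole interval between the first and last member holds 2179 other genes and was not described gene by gene, a limit chosen after the positions were seen.

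Receptors of the family were measured as a list of 11 genes chosen for the pathway, of which 8 had enough counts to be tested. None was called in any of the 3 comparisons, by edgeR with or without the fold threshold. With that threshold, 7.68% of all genes were called in IMQ + H2O and 7.64% in IMQ + XYF against VAS + H2O, and 0.0281% between the imiquimod groups. At such shares, the lack of a call among 8 genes is not a result about the receptors. Il1rl2, the IL-36 receptor chain and the gene of highest mean CPM in the list, was at 159.2, 174.8 and 201.0 CPM in VAS + H2O, 181.8, 194.8 and 213.6 CPM in IMQ + H2O and 189.2, 174.8 and 200.3 CPM in IMQ + XYF. The difference in IMQ + H2O (log2 fold change 0.13 ± 0.11 SE) was not called (adjusted p = 0.435). Il1r2, a decoy that binds IL-1 without signalling, was at 73.1, 63.5 and 70.4 CPM in VAS + H2O, 39.3, 54.8 and 55.9 CPM in IMQ + H2O and 60.2, 43.6 and 33.6 CPM in IMQ + XYF. All 6 imiquimod libraries lay below the controls, with a log2 fold change of -0.48 ± 0.15 SE in IMQ + H2O (adjusted p = 0.0579) and -0.59 ± 0.20 SE in IMQ + XYF (adjusted p = 0.0695), neither called. Il1rl1, the receptor of IL-33, had at most 0.283 CPM in any library.

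Among 27 genes of the signalling route, 1 was called in IMQ + H2O, and 8 were higher by the adjusted p alone, where 3.64% and 12.7% of all genes were. The called gene was Myd88, the adaptor shared by these receptors and Toll-like receptors, at 43.0, 42.5 and 54.8 CPM in VAS + H2O, 89.7, 90.1 and 104.0 CPM in IMQ + H2O and 91.0, 96.7 and 81.0 CPM in IMQ + XYF. Its rise in IMQ + H2O was 2.01-fold (adjusted p = 0.00709), at the edge of the fold threshold. The others passed the adjusted p below that threshold, among them Nfkb1 (log2 fold change 0.59) and Nfkb2 (0.69), subunits of NF-kappaB, and Irak3 (0.77), an inhibitory kinase of the same route. For IMQ + XYF against VAS + H2O no signalling gene was called, while 7 were higher and 1 lower by the adjusted p alone. Of all genes, 4.58% were called higher there and 16.7% were higher by the adjusted p alone. The lower one was Tollip, an adaptor that dampens IL-1 receptor signalling (log2 fold change -0.43, adjusted p = 0.0194). Every IMQ + H2O library was also below every control for Tollip (-0.29, adjusted p = 0.0845, not called). Between the imiquimod groups it was not called either (-0.15). The median log2 fold change of the list was 0.09 in both comparisons with VAS + H2O.

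Genes whose products process or release these cytokines formed a list of 27, of which 20 were tested in IMQ + H2O against VAS + H2O and 3 were called, all higher, where 3.64% of all genes were called higher. Capn2, a calpain subunit of the class of proteases that cut the IL-1 alpha precursor, was at 57.3, 65.4 and 46.7 CPM in VAS + H2O, 138.8, 163.2 and 272.3 CPM in IMQ + H2O and 199.0, 182.5 and 213.1 CPM in IMQ + XYF. Its rise in IMQ + H2O was 3.36-fold (adjusted p = 0.0103). Gsdmc, a gasdermin whose near-identical copies may share its reads, rose 7.88-fold (adjusted p = 0.00198), from 7.54 to 9.41 CPM in the controls. Casp4, the caspase that senses bacterial lipopolysaccharide, rose 2.40-fold (adjusted p = 0.0385) at a low level, from 1.44 to 2.64 CPM to 3.80 to 7.13 CPM. Against VAS + H2O, the IMQ + XYF libraries had these 3 genes and Mefv, the gene of pyrin, called higher, where 4.58% of all genes were. Mefv had no count in the controls, so it passed the count filter there only through the IMQ + XYF libraries. It was not tested in IMQ + H2O against VAS + H2O, and between the imiquimod groups it was not called (log2 fold change 0.12). Its values of 3.36, 0.308 and 0.541 CPM in IMQ + XYF and 0.138, 0 and 3.80 CPM in IMQ + H2O were highest in the libraries with high Csf3r. Casp1, the protease of IL-1 beta and IL-18, was not called.

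Genes known to respond to IL-1 and IL-36 in keratinocytes included the largest fitted changes of the lists. Of 30 listed, 26 were tested in IMQ + H2O against VAS + H2O and 16 were called, all higher, with a median log2 fold change of 3.64, where 3.64% of all genes were called higher. The list was chosen with earlier results of these data known, so its count beside that share is a description and not separate evidence. Ccl20, a chemokine for IL-17-producing T cells, was at 3.47, 4.68 and 7.86 CPM in VAS + H2O, 128.0, 93.4 and 130.2 CPM in IMQ + H2O and 182.7, 152.9 and 121.1 CPM in IMQ + XYF. Its rise in IMQ + H2O was 21.9-fold (adjusted p = 0.00214). Cxcl1, a neutrophil chemokine, rose 13.6-fold (adjusted p = 0.00355), Slc7a11, a cystine transporter, 10.8-fold (adjusted p = 0.00171) and Lcn2, an iron-binding antimicrobial protein, 40.7-fold (adjusted p = 0.00355). The alarmin genes S100a8 and S100a9 rose 272-fold (adjusted p = 0.0089) and 120-fold (adjusted p = 0.00978), with 105.1, 141.5 and 982.6 CPM of S100a8 in IMQ + H2O. Neutrophils also hold these proteins, and the neutrophil markers given above were highest in the same library, IMQ + H2O replicate 3, a part that was not tested. Tslp, an epithelial cytokine, rose 5.65-fold and Icam1, an adhesion molecule, 2.16-fold, the smallest of the 16. Ccl2, Cxcl3, Csf3, Il17c, Il19, Il24, Defb4 and Saa3 were also called, from at most 0.516 CPM in any control. Other cytokines induce many of these genes too. Genes so low in the controls can pass the count filter through the imiquimod libraries alone, and listed genes that did not pass were left out. The number of targets called and their median therefore depend in part on the filter.

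Against the controls, IMQ + XYF had 24 of the 30 target genes tested and 18 called, all higher, with a median log2 fold change of 3.30, where 4.58% of all genes were called higher. Cxcl2, Ccl3, Il23a and Ptgs2 were called here and not in IMQ + H2O, where Cxcl2, Il23a and Ptgs2 had adjusted p-values of 0.0571, 0.0598 and 0.0748 and Ccl3 was not tested. Csf3 and Saa3 were not tested here, and the limit of the filter given above holds here too. Cxcl2, a neutrophil chemokine, was spread like Il1b, at 12.7, 16.8 and 178.9 CPM in IMQ + H2O and 119.2, 26.2 and 37.0 CPM in IMQ + XYF. Between the imiquimod groups, 28 target genes were tested and none was called, with a median log2 fold change of -0.24. The smallest adjusted p of a target gene was 0.979, shared by Ccl20 (log2 fold change 0.38) and Saa3 (-1.37).

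**Figure D5:**
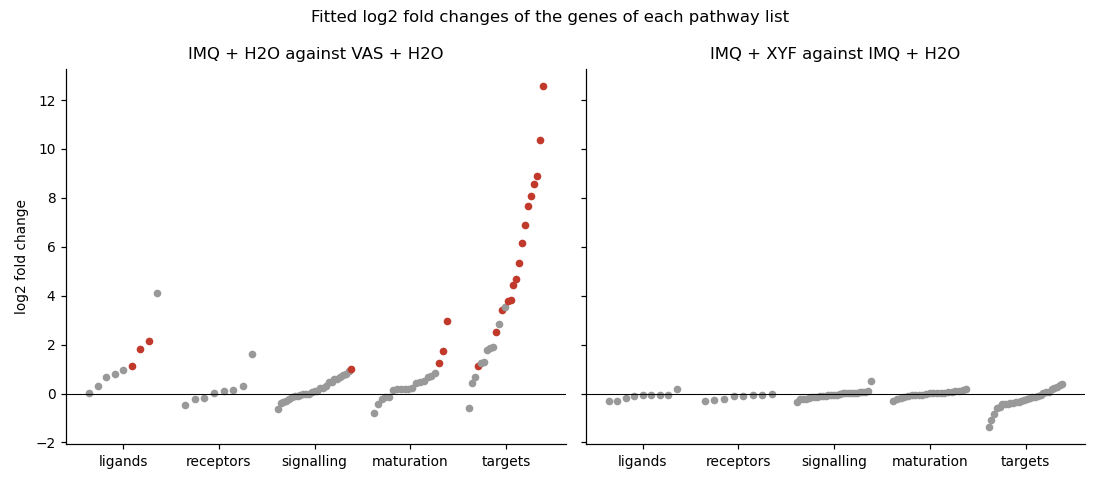
Fitted log2 fold changes of the tested genes of each list, in rank order within a list, for IMQ + H2O against VAS + H2O (left) and IMQ + XYF against IMQ + H2O (right); red points were called higher. On the left the 26 target genes have a median of 3.64 and the 8 receptor genes one of 0.05, and on the right no point is called. The lists were chosen with earlier results of these data known.

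For each member the 3 genes outside the family with the most similar pattern were found by Pearson r of log2 CPM over the 9 libraries, as a description. Il1a was most like Mlkl (r = 0.998), Pla2g2d (0.997) and Stom (0.996), and Il1b most like Lilr4b (0.991), F5 (0.986) and Cd14 (0.986). Lilr4b and Cd14 are myeloid receptor genes. Il1f6 was most like Gsdma (0.988), Arrdc4 (0.988) and Ubqln1 (0.984), and Il1f9 most like Tkt (0.992), Nkpd1 (0.991) and Blmh (0.990). Gsdma is an epidermal gasdermin and Blmh a protease that breaks down filaggrin. Il1f5 was most like Tprg (0.966), Chit1 (0.964) and Capn12 (0.963), Il1f8 most like Myo5b (0.960), Slc30a1 (0.955) and Epn3 (0.954), and Il1rn most like Mroh7 (0.971), Timm13 (0.961) and Ap1m2 (0.960). Il18 was most like Anxa9 (0.965), Card14 (0.965) and Gm11992 (0.958), and Il33 most like Lrg1 (0.974), Trim6 (0.972) and Hpgds (0.953). Ranking by Spearman's rho kept 1 of the 3 genes for Il1f5, Il1f6 and Il1f8 and 0 for the other members.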

How the data were processed

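Total RNA of epidermal sheets was sequenced in 9 libraries, 3 per group, and groups were taken from the sample labels. The submitters' processing notes name FastQC, STAR 2.5, Cuffnorm and DESeq 1.22.1, and the paper's methods name GRCm38 with an Ensembl annotation. The labels call the libraries strand-specific, and the tool and strand setting of the counting are not given in the sources used here. The authors deposited whole-number counts per gene without normalization, and 21327 of 52550 genes have no count.

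Pairs of groups were fitted on their 6 libraries with edgeR 4.0.16 in R 4.3.3 (TMM, filterByExpr, glmQLFit and glmQLFTest), and the Benjamini-Hochberg adjustment ran over all genes tested. CPM used TMM factors over the 18492 genes that passed the filter in 9 libraries, and all 9 members passed it. log2 CPM used a prior count of 2. DESeq2 1.42.0, other size factors and filters, a replicate block, a common fit and each library left out were alternatives.

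In simulated counts of IMQ + H2O against VAS + H2O with 200 of 18009 genes changed by 2 on the log2 scale, edgeR recovered 76.5% with 5 false calls and DESeq2 85.5% with 29. Smaller changes and the other comparisons were not simulated, so these shares do not apply to the smaller differences of most members. The members, pathway lists and marker lists were chosen with earlier results of these data known. Named genes were the members, Il1f10, called genes of the lists (the 2 of highest mean CPM for the receptors, which had none), the 3 genes most like each member, and genes of the chromosome 2 clusters; Csf3r, Retnlg and genes named below the fold threshold or for a missed call were chosen after their values were seen. Marker lists not described in the results were those of endothelial cells, at 9.86 to 13.7 CPM in sum in VAS + H2O and 3.73 to 9.27 in the imiquimod libraries, mast cells, at 0.278 to 0.806, and melanocytes, at 14.0 to 39.3.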

Additional observations from a re-analysis of the deposited data

How the results depend on the processing

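When single libraries were left out, the number of members called ran from 3 to 5 in IMQ + H2O against VAS + H2O, was 0 throughout in IMQ + XYF against IMQ + H2O, and ran from 3 to 4 in IMQ + XYF against VAS + H2O. The highest count came without IMQ + H2O replicate 1, where Il1b and Il33 were added. DESeq2 and the fit of all 9 libraries each called 4 members in the first comparison, adding Il1b (adjusted p = 0.00862 and 0.0467). Il1a and Il1f6 were called in both comparisons with VAS + H2O under every alternative run, and Il1f9 under all but the 2 given above. In IMQ + XYF against VAS + H2O, Il1b was not called in the fit of all 9 libraries (adjusted p = 0.0595).

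Directions changed only for differences that were not called. With 1 library left out, the log2 fold change of Il18 ran from -0.111 to 0.282, from -0.376 to 0.0538 and from -0.261 to 0.0375 in the 3 comparisons. In IMQ + XYF against IMQ + H2O it ran from -0.0068 to 0.42 for Il1a (0.51 without the 2 libraries named next), -1.48 to 2.39 for Il1b, -0.56 to 0.18 for Il33, -0.42 to 0.0014 for Il1f5, -0.27 to 0.22 for Il1f6, -0.30 to 0.11 for Il1f8 and -0.164 to 0.0347 for Il1f9. Without both IMQ + H2O replicate 3 and IMQ + XYF replicate 1, an alternative chosen after seeing the data, Il1b was at 1.24.

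Same-numbered libraries of 2 groups had correlations of their deviations from the group means that ran from -0.133 to 0.105. Differently numbered libraries were not compared, so these values do not decide whether the replicate numbers pair the libraries. With the replicate number as a block, 3, 0 and 3 members were called in the 3 comparisons, against 3, 0 and 4 without it, and Il1b lost its call in the last (log2 fold change 3.33, adjusted p = 0.0632). The block put Il18 at -0.0415 in the first comparison and Il1b at 0.21 and Il1f8 at 0.0017 in the second. Group means of CPM without TMM factors moved by less than 1 SD for all 9 members. Over all genes, IMQ + XYF against IMQ + H2O gave 5 calls with edgeR, 129 with DESeq2, 1 in the fit of all 9 libraries, 0 with the block and 0 to 5 with a library left out. For IMQ + H2O against VAS + H2O the 1383 calls fell to 711 without IMQ + H2O replicate 3, 717 without VAS + H2O replicate 2 and 857 without VAS + H2O replicate 1.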
